A study of Mus musculus with 12 samples.

Results

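Gata2, Gata3 and Gata6 are 3 members of the GATA family of zinc finger transcription factors, and their messenger RNA was measured here in mouse fat. They are 3 of 8251 genes named on an Affymetrix expression array, and 6 of its 12422 probe sets, sets of short DNA probes for 1 transcript, measure them. Every probe set with 1 of these symbols as its single gene name in the platform annotation was taken: 2 for Gata2, 1 for Gata3 and 3 for Gata6. The study collected epididymal fat, called intraabdominal, and flank subcutaneous fat from 10 male C57BL/6 mice aged 42 to 49 days, pooled each depot and digested it with collagenase. The 12 arrays form 4 groups of 3: subcutaneous adipocytes, intraabdominal adipocytes, and cells of the stromo-vascular fraction of subcutaneous and of intraabdominal fat. C57BL/6 is an inbred laboratory strain, and the labels name no transgene or drug for any group. Adipocytes were the floating cells, taken straight to RNA extraction. The cells of the stromo-vascular fraction, called SVF cells here, are the pelleted remainder of the tissue, a mixture with preadipocytes in it, and their RNA was taken after 16 h in culture, so cell fraction and culture cannot be told apart. The labels do not say whether the 3 replicates of a group came from separate pools of tissue, and a p-value here therefore covers only the spread between the arrays, which may be technical.

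GATA factors bind the DNA motif from which the family takes its name, and they act together with cofactors of the FOG family, Zfpm1 and Zfpm2. In mouse white fat, Gata2 and Gata3 are known from preadipocytes, where they hold back differentiation into adipocytes and repress Pparg, the master regulator of that step. Gata2 also works in blood progenitors, mast cells and endothelium, Gata3 in T lymphocytes, and Gata6 in the heart, smooth muscle, gut and the resident macrophages of the peritoneal cavity.

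On the mouse assembly GRCm38.p6, RefSeq places Gata2 at chr6:88193891-88207032 and Gata3 at chr2:9857078-9887953. Gata2 is shown in sequence because its depot difference turned round between cell fractions, and because RefSeq gives it 2 transcription starts that the array signal cannot be assigned to. The 200 bases before each start, on the plus strand, are the following, with CCAAT boxes in capitals, written ATTGG where they lie on the other strand.
Gata2, first start, chr6:88193691-88193890: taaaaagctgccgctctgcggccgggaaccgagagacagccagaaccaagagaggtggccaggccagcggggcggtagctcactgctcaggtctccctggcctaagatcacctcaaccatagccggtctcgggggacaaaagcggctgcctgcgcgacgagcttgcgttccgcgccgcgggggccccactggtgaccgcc
Gata2, second start, chr6:88198464-88198663: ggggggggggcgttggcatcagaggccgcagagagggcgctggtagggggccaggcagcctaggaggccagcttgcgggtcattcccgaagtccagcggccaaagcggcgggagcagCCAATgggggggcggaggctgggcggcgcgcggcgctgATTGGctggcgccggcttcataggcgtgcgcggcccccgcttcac
The stretch before the second start holds a CCAAT 83 bases and an ATTGG 45 bases upstream of it, and the stretch before the first start holds none. Of all 32851 RefSeq start regions of this length, 29.3% held at least 1 CCAAT box on either strand and 7.98% held at least 2. Neither stretch holds the GATA motif on either strand, searched as AGATAA with T allowed in its first place and G in its last, which 21.4% of all start regions held.

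Signals are given as deposited, on a linear scale in arbitrary units, and levels are compared only within a probe set. Tests were made with limma after adding 40.1 to each signal and taking log2, which understates the change of dim genes. Adjusted p-values are Benjamini-Hochberg values over the 8695 probe sets left after the dimmest 30% were removed, and "called" means an adjusted p under 0.05. Of the 6 probe sets, 5 passed that filter, and Gata2 161820_f_at did not. Arrays of 1 group correlated with each other at 0.924 to 0.976. The 3' to 5' ratio of the actin control, a measure of RNA integrity, was 2.35 to 3.10 in subcutaneous adipocytes and 1.71 to 2.24 in intraabdominal adipocytes, against 1.20 to 1.24 in subcutaneous and 1.11 to 1.21 in intraabdominal SVF cells. It therefore moved with both the fraction and, in adipocytes, the depot, without overlap. A fit with this ratio as a covariate thus cannot tell RNA integrity from the groups compared.

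The brighter Gata2 probe set was 102789_at, whose mean signal ranked at percentile 65.6 of all probe sets. Its signal was 1056, 1114 and 1251 in subcutaneous adipocytes and 495, 758 and 830.3 in intraabdominal adipocytes. All 3 subcutaneous adipocyte arrays were thus above all 3 intraabdominal ones, of which the first was the lowest. In SVF cells it was 695, 800.2 and 694 in the subcutaneous depot and 1822, 1859 and 1719 in the intraabdominal depot. The order of the depots was the opposite of that in adipocytes, again without overlap. Among all probe sets tested, the depots did not overlap for 24.3% in adipocytes and for 37.3% in SVF cells. Group means were 1140 ± 100 and 694.5 ± 177 in subcutaneous and intraabdominal adipocytes, and 729.8 ± 61 and 1800 ± 72.7 in subcutaneous and intraabdominal SVF cells (SD, n = 3 each). From high to low, the order was intraabdominal SVF cells, subcutaneous adipocytes, subcutaneous SVF cells and intraabdominal adipocytes, and the arrays of the last 2 overlapped.

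**Figure D1:**
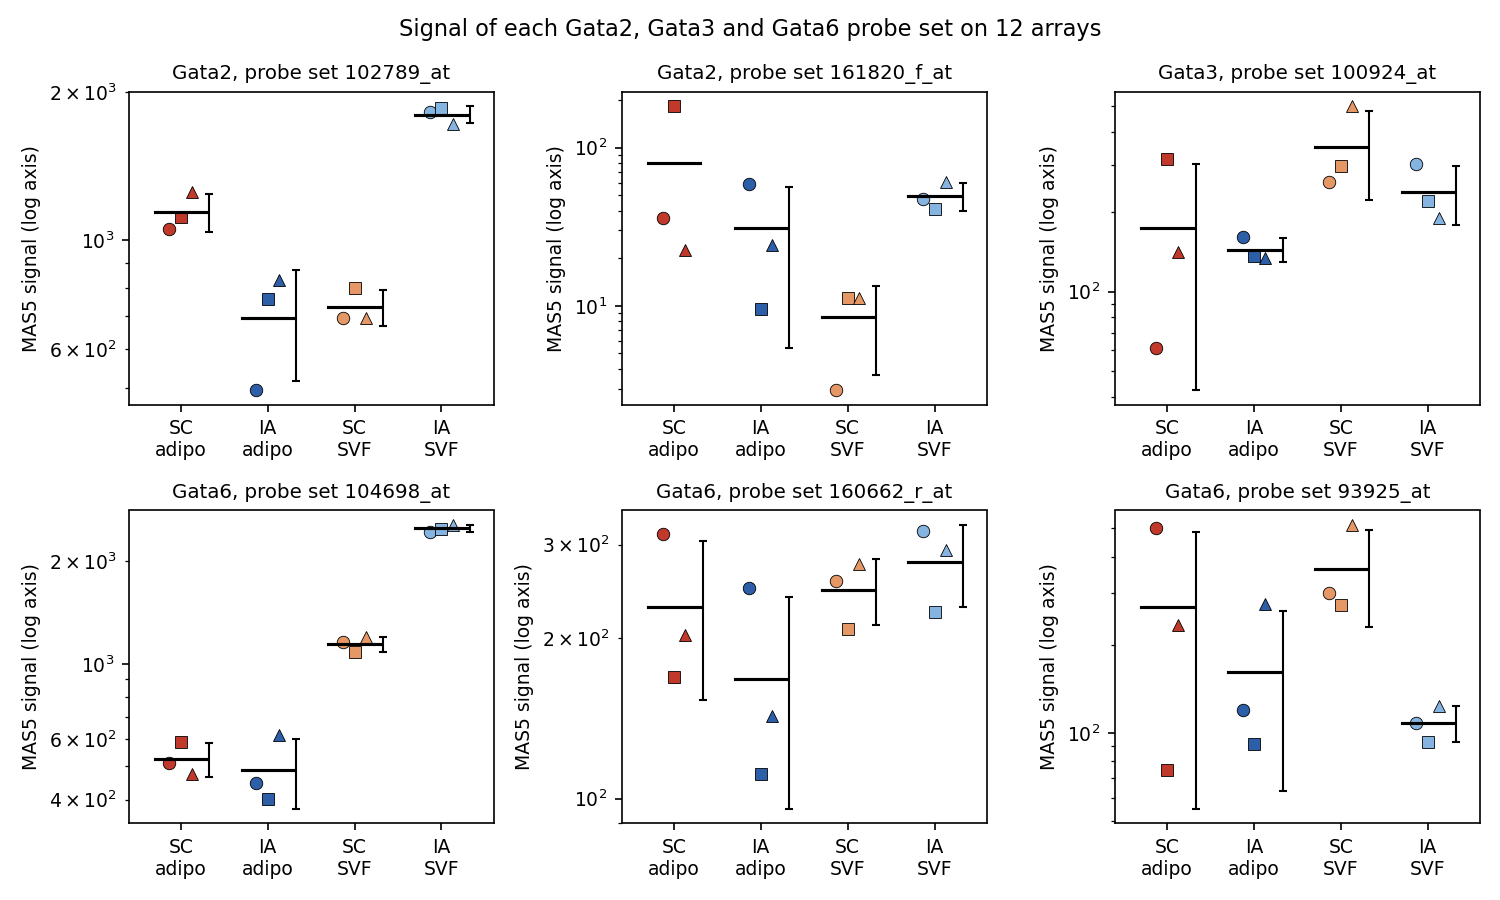
Signal of each Gata probe set on a log axis in the 4 groups, where SC is subcutaneous, IA intraabdominal, adipo adipocytes and SVF the stromo-vascular fraction. Circles, squares and triangles are replicates 1, 2 and 3, lines are means and error bars are SDs, left out where the SD exceeds the mean. Gata2 102789_at and Gata6 104698_at are highest in intraabdominal SVF cells on all 3 arrays.

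In SVF cells, Gata2 102789_at was 2.39-fold lower in the subcutaneous depot than in the intraabdominal depot (log2 difference -1.26 ± 0.197, SE, limma adjusted p = 0.000459). In that comparison 12.9% of all probe sets tested were called. In adipocytes it was 1.64-fold higher in the subcutaneous depot than in the intraabdominal depot (0.71 ± 0.197, limma adjusted p = 0.0401), where 8.13% of all probe sets were called. That call was lost when any array but the third of intraabdominal adipocytes was left out, with log2 differences of 0.50 to 0.79 and limma adjusted p of 0.0515 to 0.155 in the fits that lost it. With each array centred on its median the difference was 0.49 (limma adjusted p = 0.124), but the median of all probe sets then also moved, to -0.15 from 0.07. With this centring 18% of all calls were for a higher subcutaneous signal, against 48.8% without it. With the actin ratio as a covariate, a choice made after seeing the data, it was 0.50 (limma adjusted p = 0.572). The interaction, which is the adipocyte depot difference less the SVF one, was 1.97 ± 0.278 (limma adjusted p = 0.000383), in a test that called 8.43% of all probe sets. With median centring 32.9% of the probe sets called in the interaction were higher, against 46.2% without it, and the Gata2 interaction stayed called under every alternative run. Of 8695 probe sets, 21 (0.242%) were called higher in subcutaneous adipocytes and lower in subcutaneous SVF cells than in the intraabdominal depot, Gata2 among them.

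Between fractions, Gata2 102789_at was also split by depot. It was 1.53-fold higher in subcutaneous adipocytes than in subcutaneous SVF cells (log2 difference 0.62, limma adjusted p = 0.0165). In the intraabdominal depot it was 2.56-fold lower in adipocytes than in SVF cells (-1.35, limma adjusted p = 3.82e-05). The background in these comparisons was broad, with 52.8% of all probe sets called in the subcutaneous and 51.3% in the intraabdominal depot, and with fractions that did not overlap for 60% and 59.9%. The subcutaneous call was lost without the third array of subcutaneous adipocytes (limma adjusted p = 0.0501) or without the first of subcutaneous SVF cells (0.053). With the actin ratio as a covariate the subcutaneous difference was 0.08 (limma adjusted p = 0.963).

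The other Gata2 probe set, 161820_f_at, was dim, at percentile 4.6 of all probe sets. Its signal was 35.9, 183 and 22.4 in subcutaneous adipocytes and 59.2, 9.5 and 24.1 in intraabdominal adipocytes. In SVF cells it was 2.9, 11.2 and 11.2 in the subcutaneous depot, against 47.2, 41.0 and 60.8 in the intraabdominal depot. The SVF arrays of the depots did not overlap and lay in the same order as those of 102789_at, but the adipocyte arrays overlapped. How often the depots did not overlap among probe sets too dim for the filter was not counted. The SVF order is therefore only described, and no likeness to 102789_at is drawn from it. Fitted without the filter, 161820_f_at was called in none of the 5 comparisons. Its log2 differences between depots were 0.58 in adipocytes and -0.89 in SVF cells (limma adjusted p = 0.436 and 0.253). That fit, of all 12422 probe sets, called 5.31% of them between depots in adipocytes, 8.83% in SVF cells, 38.4% and 36.7% between fractions in the subcutaneous and intraabdominal depots and 5.46% in the interaction. Its unadjusted p-values were under 0.05 in 3 of the 5, and the share of all probe sets at that level was not counted.

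**Figure D2:**
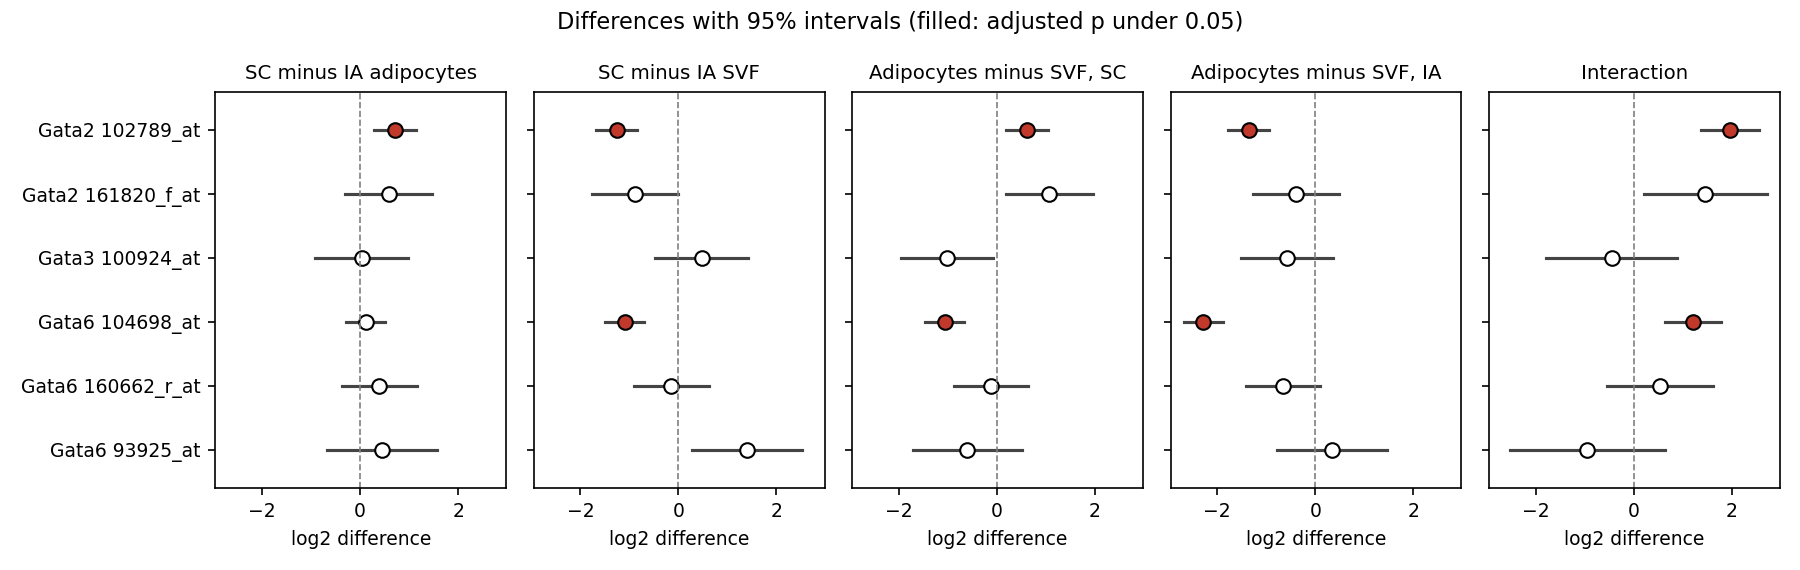
Log2 differences of the Gata probe sets in the 4 comparisons between groups and the interaction, with 95% intervals from limma (SC subcutaneous, IA intraabdominal, SVF stromo-vascular fraction). Filled points have an adjusted p under 0.05. Gata2 102789_at has filled points on opposite sides of 0 for the depot difference in adipocytes (0.71) and in SVF cells (-1.26).

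Gata3 was measured by 100924_at, at percentile 33.1 and just above the filter. Its signal was 61.4, 317 and 141 in subcutaneous adipocytes and 161, 136 and 134 in intraabdominal adipocytes. In subcutaneous SVF cells it was 259, 298 and 501, and in intraabdominal SVF cells 304, 220.4 and 189. The depots overlapped in both fractions, and the 3 arrays of subcutaneous adipocytes spanned the widest range of any group. Group means were 173 ± 131 in subcutaneous and 144 ± 15 in intraabdominal adipocytes, and 353 ± 130 in subcutaneous and 238 ± 59.1 in intraabdominal SVF cells (SD, n = 3 each). In the order subcutaneous SVF cells, intraabdominal SVF cells, subcutaneous adipocytes and intraabdominal adipocytes, each group overlapped the next. Neither depot difference was called, at 0.03 in adipocytes (95% interval -0.92 to 0.98) and 0.47 in SVF cells (95% interval -0.47 to 1.42), with limma adjusted p of 0.972 and 0.576. The adipocyte interval takes in differences as large as that of Gata2 102789_at, in either direction. Adipocytes had less Gata3 signal than SVF cells in each depot, by -1.02 in the subcutaneous and -0.58 in the intraabdominal depot on the log2 scale, and neither was called (limma adjusted p = 0.0661 and 0.298). The intraabdominal fractions did not overlap, as was so for 59.9% of all probe sets tested. Without the second array of subcutaneous adipocytes, the one at 317, the subcutaneous difference was -1.48 and was called (limma adjusted p = 0.00918).

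Gata6 was highest in the SVF cells of intraabdominal fat by its brightest probe set, 104698_at, at percentile 64.1. The gene lies at chr18:11052510-11085636 on GRCm38.p6. Its signal was 512, 592 and 476 in subcutaneous adipocytes and 449, 401 and 617 in intraabdominal adipocytes. In SVF cells it was 1155, 1081 and 1195 in the subcutaneous depot and 2441, 2482 and 2556 in the intraabdominal depot. Both SVF groups were narrow and stood apart from each other and from all adipocyte arrays, while the adipocyte groups overlapped. Among all probe sets tested, the SVF depots did not overlap for 37.3%. The fractions did not overlap for 60% in the subcutaneous and 59.9% in the intraabdominal depot. Means were 527 ± 59.2 in subcutaneous and 489 ± 113 in intraabdominal adipocytes, and 1144 ± 58 in subcutaneous and 2493 ± 58.2 in intraabdominal SVF cells (SD, n = 3 each).

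In SVF cells, Gata6 104698_at was 2.14-fold lower in the subcutaneous depot than in the intraabdominal depot (log2 difference -1.10, limma adjusted p = 0.000983). In adipocytes the depot difference was 0.12 ± 0.187 (SE), with a 95% interval of -0.29 to 0.52 (limma adjusted p = 0.743). The interaction was 1.21 ± 0.265 (limma adjusted p = 0.00955), and with the actin ratio as a covariate it was 1.06 (limma adjusted p = 0.103). Adipocytes were 2.10-fold lower than SVF cells in the subcutaneous depot (-1.07, limma adjusted p = 0.000223) and 4.86-fold lower in the intraabdominal depot (-2.28, limma adjusted p = 1.06e-07). With the actin ratio as a covariate the subcutaneous difference was -1.50 and was not called (limma adjusted p = 0.15). In all, 211 of 8695 probe sets (2.43%) were called lower in subcutaneous SVF cells and lower in the adipocytes of both depots, as Gata6 104698_at was.

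The other Gata6 probe sets differed from each other in how they lay beside 104698_at. Probe set 93925_at had signals of 500.3, 74.9 and 235 in subcutaneous adipocytes and 119.8, 91.7 and 275 in intraabdominal adipocytes. In SVF cells it had 300.4, 274 and 515 in the subcutaneous depot and 108, 93.1 and 124 in the intraabdominal depot. There all subcutaneous arrays were above all intraabdominal arrays, the opposite of 104698_at. The SVF depots did not overlap for 37.3% of all probe sets tested. The difference was 1.40 ± 0.523 (SE) on the log2 scale and was not called (limma adjusted p = 0.102). It was called when limma was fitted to the SVF arrays alone (adjusted p = 0.0117), with array quality weights (0.0221) and without the second array of subcutaneous adipocytes (0.0429). Probe set 160662_r_at had 314, 169.5 and 203 in subcutaneous and 249, 111 and 143 in intraabdominal adipocytes, and 256, 209 and 276 in subcutaneous and 318, 224 and 293 in intraabdominal SVF cells. Its groups overlapped in all 4 comparisons. Its log2 differences had the same signs as those of 104698_at throughout. They were smaller between the SVF depots (-0.15) and between fractions (-0.12 subcutaneous and -0.66 intraabdominal). Neither probe set was called in any of the 5 comparisons of the limma fit. These probe sets ranked at percentiles 31.7 and 34.8, close to the filter, and the difference between probe sets was not tested. Among 1170 genes with several tested probe sets, 234 had at least 1 called between depots in SVF cells, and 1 of them had calls in both directions.

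The remaining GATA genes with a probe set here are Gata1 and Gata4, regulators of red cell and heart development, and Gata5. Gata4 102713_at averaged 1288 in subcutaneous and 833 in intraabdominal adipocytes, and 943 in subcutaneous and 850.5 in intraabdominal SVF cells. Its depot difference in adipocytes was 0.62 (limma adjusted p = 0.149). Gata1 161456_f_at averaged 646 in subcutaneous and 384 in intraabdominal adipocytes, with a difference of 0.79 (limma adjusted p = 0.141). Neither was called in any comparison, and Gata1 102654_at and Gata5 96500_at were below the filter.

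Of 19 GATA cofactors and partners on the array, 14 were tested, and Zfpm2, the FOG cofactor known from heart development, was among them. Its signal was 92.5, 91.6 and 62.7 in subcutaneous adipocytes and 143, 22.7 and 56.7 in intraabdominal adipocytes. In SVF cells it was 123, 105 and 133 in the subcutaneous depot and 1226, 1157 and 1374 in the intraabdominal depot. Zfpm2 thus stood well above the level of the filter, a signal of 173, in 1 of the 4 groups, and it was tested because of that group. Fitted without the filter, its log2 difference was -3.01 between depots in SVF cells (limma adjusted p = 0.00011) and -3.64 between fractions in intraabdominal fat (limma adjusted p = 2.12e-06), and its interaction was 3.24 (limma adjusted p = 0.00214). All arrays of the other groups were below the level of the filter, so no fold is given. Zfpm2 lies at chr15:40655042-41104592.

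**Figure D3:**
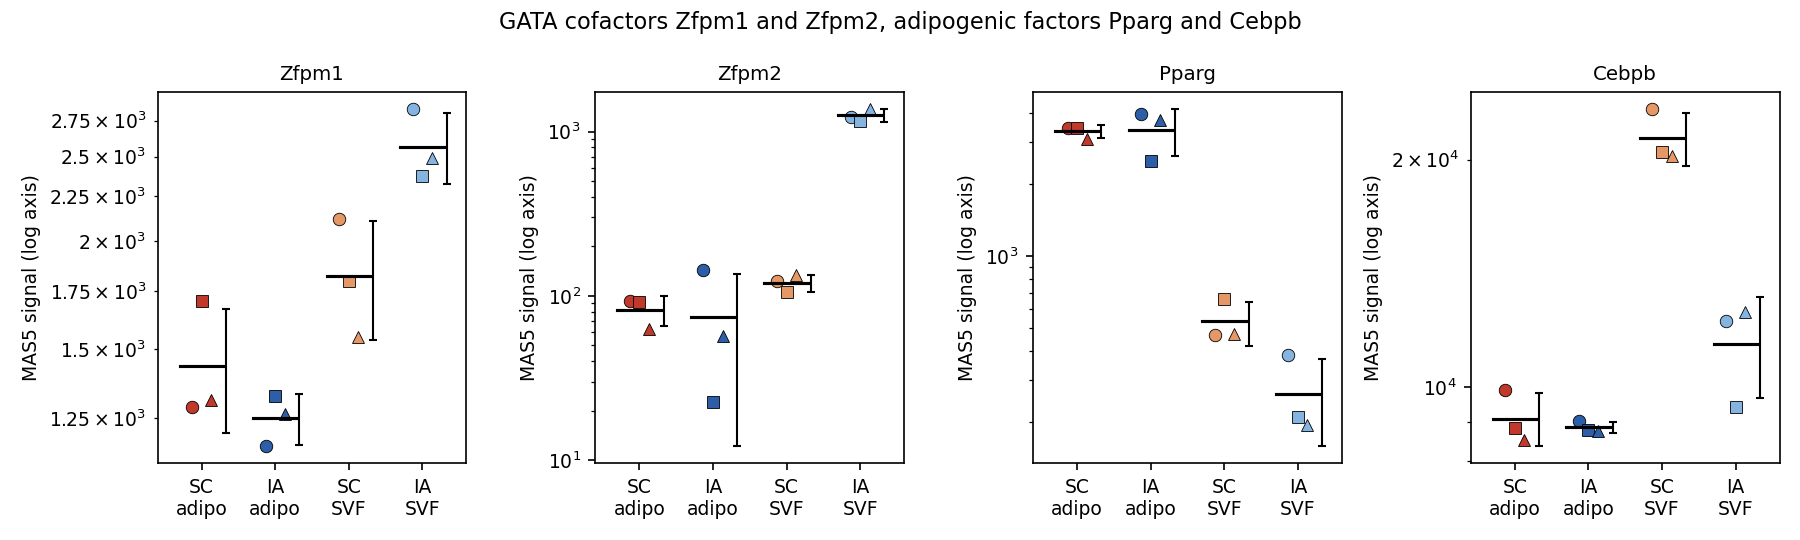
Signals on a log axis of Zfpm1, Zfpm2, Pparg and Cebpb in the 4 groups (SC subcutaneous, IA intraabdominal, SVF stromo-vascular fraction), with a symbol for each replicate, lines at the means and SDs as error bars. Zfpm2 is at 1157 to 1374 in intraabdominal SVF cells and at most 143 in every other group.

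Zfpm1, the FOG cofactor known from red cell and megakaryocyte development, averaged 1435 in subcutaneous and 1250.0 in intraabdominal adipocytes, and 1822 in subcutaneous and 2567 in intraabdominal SVF cells. In intraabdominal fat it was lower in adipocytes by -1.01 on the log2 scale (limma adjusted p = 0.000114), and its depot difference in SVF cells was -0.49 (limma adjusted p = 0.0677). Between depots, 0 of the 14 cofactors were called in adipocytes by limma, where 8.13% of all probe sets were, and 3 had an unadjusted p under 0.05. In subcutaneous SVF cells 1 was called lower, Zfpm2, as were 6.45% of all probe sets. Their median log2 difference was 0.17 in adipocytes and -0.16 in SVF cells, beside 0.07 and 0.06 for all probe sets. In adipocytes against SVF cells, 3 were higher and 4 lower in the subcutaneous depot, and 1 was higher and 6 lower in the intraabdominal depot. Of all probe sets 23.5% were called higher and 29.4% lower in the subcutaneous depot, and 22.4% higher and 29% lower in the intraabdominal depot. Runx1, a partner of GATA factors in blood formation, was lower in adipocytes of both depots, by -3.76 in the subcutaneous and -3.16 in the intraabdominal depot (limma adjusted p = 1.23e-08 and 8.18e-08). Tcf12, an E protein, was lower by -0.84 and -0.61 and Med1, a Mediator subunit that binds GATA factors, by -0.97 and -1.52 in the same order. Crebbp, a histone acetyltransferase, was lower in subcutaneous adipocytes by -2.17 (limma adjusted p = 0.00244). Hdac5, a histone deacetylase, averaged 4083 in intraabdominal adipocytes, against 2699 in intraabdominal SVF cells, and was higher by 0.58 (limma adjusted p = 0.00124). With the actin ratio as a covariate, the subcutaneous calls of Tcf12, Med1 and Crebbp were lost (limma adjusted p = 0.294, 0.328 and 0.221). Their differences were then larger, at -0.94, -1.14 and -3.61, with standard errors of 0.535, 0.691 and 1.78. The intraabdominal calls of Tcf12 (-0.67, limma adjusted p = 0.213) and Hdac5 (0.31, limma adjusted p = 0.465) were lost too.

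The regulators of fat cell formation include Pparg, a target of Gata2 and Gata3. All 18 on the array were tested. In adipocytes, limma called 0 of 18 between depots, against 8.13% of all probe sets, with 2 at an unadjusted p under 0.05. Unadjusted p-values of that size were common in this comparison, as given above. In SVF cells 4 were called, all higher in the subcutaneous depot, as 6.49% of all probe sets were: Pparg, Cebpb, Rxra and Ebf2. The median of the list was 0.13 there, beside 0.06 for all probe sets. Pparg had 464, 660 and 468 in subcutaneous SVF cells and 383, 211 and 194.5 in intraabdominal SVF cells, a log2 difference of 0.95 (limma adjusted p = 0.0188). Its SVF depots did not overlap, as was so for 37.3% of all probe sets tested. Cebpb, an early factor of differentiation, averaged 21340 in subcutaneous and 11410 in intraabdominal SVF cells, a difference of 0.91 (limma adjusted p = 0.000165). Rxra, the partner receptor of Pparg, differed by 0.43 and Ebf2, a factor of adipocyte precursors, by 0.81 (limma adjusted p = 0.0318 and 0.0167). The calls of Pparg and Ebf2 were lost without some SVF arrays, with the largest limma adjusted p at 0.0926 and 0.0721, and that of Cebpb was kept without each array. The call of Rxra was lost without each of the 6 SVF arrays (limma adjusted p of 0.0768 to 0.101), with median centring (0.0756), with no intensity trend (0.0661) and with the replicate number as a block (0.0528). The interaction was called for Cebpb, at -0.87 (limma adjusted p = 0.00601).

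Between fractions, 6 of these regulators were higher in adipocytes of the subcutaneous depot and 3 lower, and in the intraabdominal depot 7 were higher and 4 lower. Of all probe sets, 23.5% were called higher and 29.4% lower in the subcutaneous depot, and 22.4% and 29% in the intraabdominal depot. Pparg averaged 3334 in subcutaneous adipocytes, against 530.5 in subcutaneous SVF cells, and 3383 in intraabdominal adipocytes, against 263 in intraabdominal SVF cells. These are log2 differences of 2.58 and 3.52 (limma adjusted p = 5.21e-07 and 1.77e-08). Cebpa, which acts with Pparg in mature adipocytes, was higher by 3.76 in the subcutaneous and 3.99 in the intraabdominal depot. Srebf1, a regulator of lipid synthesis, was higher by 2.53 and 2.96, and Stat5a 100422_i_at by 1.86 and 2.15 in the same order. Stat5a 100423_f_at was higher by 1.10 and 1.11 (limma adjusted p = 1.59e-05 and 1.37e-05). Ctnnb1, the beta-catenin of Wnt signalling, was lower in adipocytes by -1.47 and -1.10. With the actin ratio as a covariate, the subcutaneous calls of Srebf1 and Stat5a 100422_i_at were lost (1.64 and 1.24, limma adjusted p = 0.185 and 0.426). The intraabdominal call of Stat5a 100422_i_at was lost too (1.75, limma adjusted p = 0.0568).

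Markers were read for the cell types that each fraction could hold. All 8 adipocyte markers tested were higher in adipocytes of both depots, with median log2 differences of 6.16 in the subcutaneous and 6.42 in the intraabdominal depot. Among all probe sets, 23.5% and 22.4% were called higher in adipocytes of the subcutaneous and intraabdominal depots, and 29.4% and 29% lower. Of 9 preadipocyte and fibroblast markers, 7 were lower in subcutaneous and 8 in intraabdominal adipocytes, and 1, Cd34, was higher in both. Between depots, 2 of the 9 were higher in subcutaneous adipocytes, and in SVF cells 3 were higher in the subcutaneous depot and 1 lower. Of all probe sets, 8.13% were called between depots in adipocytes, and in SVF cells 6.49% were called higher and 6.45% lower. The summed signal of the 9 markers was 55590 to 80780 in subcutaneous and 46720 to 53410 in intraabdominal adipocytes, and 335100 to 365700 in subcutaneous and 230600 to 257500 in intraabdominal SVF cells. This sum thus moved with the depot in both fractions, and its part in the Gata2, Gata3 and Gata6 values was not tested. Bright genes weigh most in it, as Col1a1, Col3a1 and Dcn reached 104500, 96090 and 105100 on an array and the others at most 36650. The median log2 depot difference of the 9 was 0.50 in adipocytes and 0.11 in SVF cells. Of 11 endothelial markers, 10 were higher in adipocytes of both depots, where their summed signal was 22240 to 39890 in subcutaneous and 26060 to 28350 in intraabdominal adipocytes, against 10910 to 12370 in subcutaneous and 10470 to 17750 in intraabdominal SVF cells. The part of endothelial RNA in the Gata2 signal of the adipocyte fraction was not tested. In bulk RNA, fewer cells of a type and less RNA per cell cannot be told apart.

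Several marker lists moved with the SVF depot difference of Gata2, Gata6 and Zfpm2. All 5 mesothelial markers tested were lower in subcutaneous SVF cells (Upk3b, Bnc1, Wt1, Krt8 and Krt18), with a median of -2.45 on the log2 scale, while 6.45% of all probe sets were called lower there and 6.49% higher. Their summed signal over the 7 on the array was 1087 to 1413 in subcutaneous and 6879 to 7064 in intraabdominal SVF cells, and 1083 to 1872 in subcutaneous and 1145 to 1750.0 in intraabdominal adipocytes. Of these 7, 4 averaged below the level of the filter in subcutaneous adipocytes and 5 in intraabdominal adipocytes. In subcutaneous SVF cells 3 did, and in intraabdominal SVF cells 1 did. Some of the 5 tested thus passed the filter with help from the group where they were high, which partly fixed the count. Smooth muscle and pericyte markers numbered 9, and 8 of them fell in subcutaneous SVF cells relative to intraabdominal ones, among them Actg2, Cnn1, Myh11 and Tagln. Their summed signal was 35000 to 38100 in subcutaneous and 131700 to 157000 in intraabdominal SVF cells, against 5225 to 8634 in subcutaneous and 6971 to 8263 in intraabdominal adipocytes. Bright genes weigh most in this sum, as Tagln, Acta2 and Actg2 reached 65070, 42740 and 20950 on an array and the others at most 10100. Between fractions, 4 of the 9 were lower and 2 higher in subcutaneous adipocytes (median 0.17), and 8 were lower and 1 higher in intraabdominal adipocytes (median -3.37). Of all probe sets, 29.4% were called lower and 23.5% higher in the subcutaneous depot, and 29% and 22.4% in the intraabdominal depot. Of 11 macrophage markers, 6 were lower in subcutaneous SVF cells, among them C1qa, C1qb, C1qc and Mpeg1, and 1 was higher. The macrophage sum was 21430 to 22340 in subcutaneous and 30000 to 34670 in intraabdominal SVF cells, and 22780 to 32030 in subcutaneous and 17190 to 27130 in intraabdominal adipocytes. The part of these cell types in the Gata2, Gata6 and Zfpm2 differences was not tested.

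**Figure D4:**
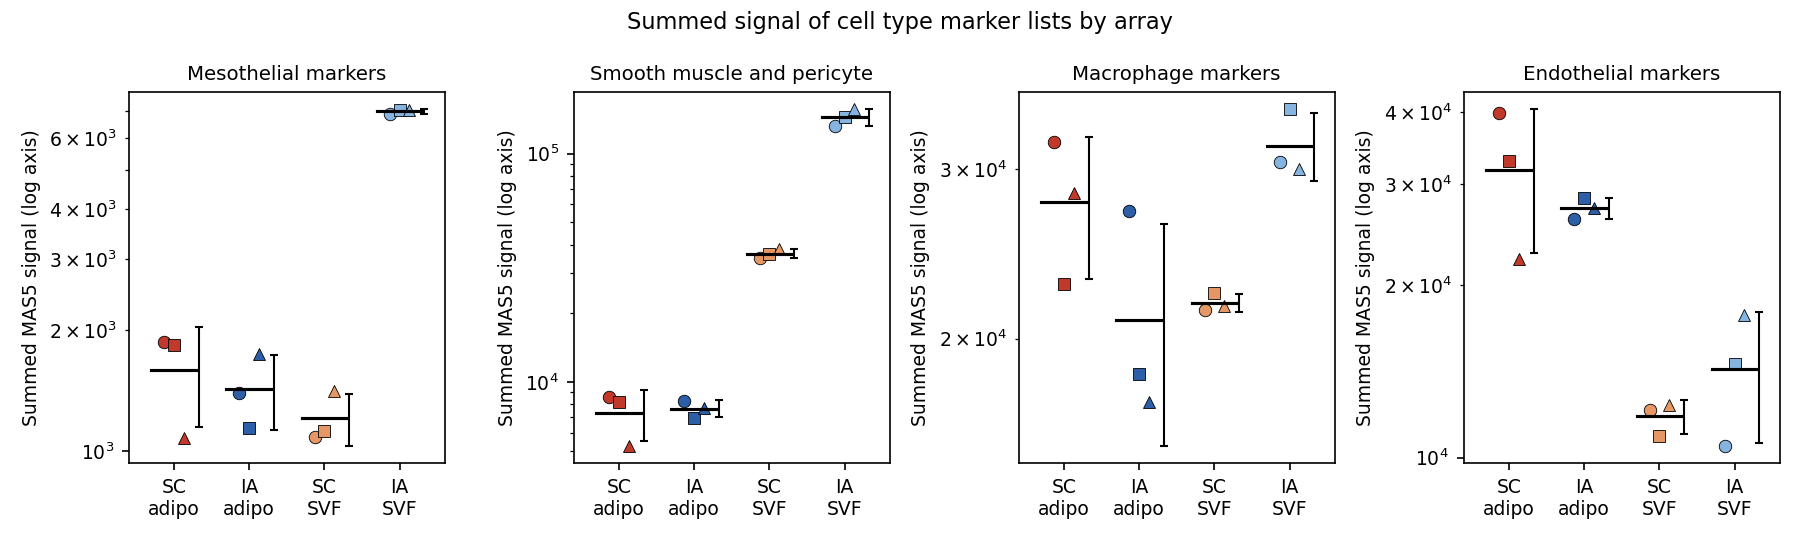
Summed signal of the mesothelial, smooth muscle and pericyte, macrophage and endothelial marker lists on a log axis in the 4 groups (SC subcutaneous, IA intraabdominal, SVF stromo-vascular fraction), with a symbol for each replicate, lines at the means and SDs as error bars. The mesothelial and smooth muscle sums are highest in intraabdominal SVF cells, at 6879 to 7064 and 131700 to 157000.

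Other lists had calls in the other direction or were mostly too dim to test. Of 11 endothelial markers, 6 were higher in subcutaneous SVF cells, beside 6.49% of all probe sets. Ramp2 and Cdh5 were among the 6, whereas Gata2 was lower there. The summed signal of the 11 overlapped between the SVF depots, with means of 11810 in subcutaneous and 14270 in intraabdominal SVF cells. Of the mast cell markers 2 of 9 were tested, and Cma1, a mast cell chymase, was higher in subcutaneous SVF cells, at 1475 against 367 in intraabdominal SVF cells (limma adjusted p = 7.38e-05). The defining mast cell markers Cpa3, Kit, Ms4a2 and Fcer1a were below the filter. Of the T lymphocyte markers 2 of 9 were tested, Cd4 and Il7r, 0 were called between depots by limma, and Cd3e, Cd3g and Cd3d were below the filter. Of the peritoneal macrophage markers 1 of 5 was tested, Tgfb2, which was lower in subcutaneous SVF cells (-1.53, limma adjusted p = 0.0404). The erythroid sum was higher in adipocytes, at 18710 to 46030 in subcutaneous and 20900 to 22720 in intraabdominal adipocytes, against 1322 to 1884 in subcutaneous and 1115 to 1538 in intraabdominal SVF cells, whose red cells had been lysed. No tested marker of erythroid cells (4), keratinocytes (3) or epididymis and testis (1) was called by limma between depots.

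The probe sets whose pattern over the 12 arrays was closest to a Gata probe set were found by the root mean square difference of log2 values, each centred on its own mean. For Gata2 102789_at they were Cryab, St8sia4, Ssbp2, Cdh3 and Wbp1, at 0.273 to 0.312 among 7806 probe sets compared, whose median was 0.771. Cryab, a small heat shock protein, averaged 2208 in subcutaneous and 1504 in intraabdominal adipocytes, and 2219 in subcutaneous and 4466 in intraabdominal SVF cells. For Gata6 104698_at they were Col5a1 by both of its probe sets, Dlg1, Apbb2 and Vasp, at 0.169 to 0.223 among 7804 compared, whose median was 1.01. Col5a1, a fibrillar collagen chain, averaged 1639 in subcutaneous and 1578 in intraabdominal adipocytes by 101080_at, and 3989 in subcutaneous and 6779 in intraabdominal SVF cells. The compared values share their arrays, scaling and culture, and the likeness is a description with no test.

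**Figure D5:**
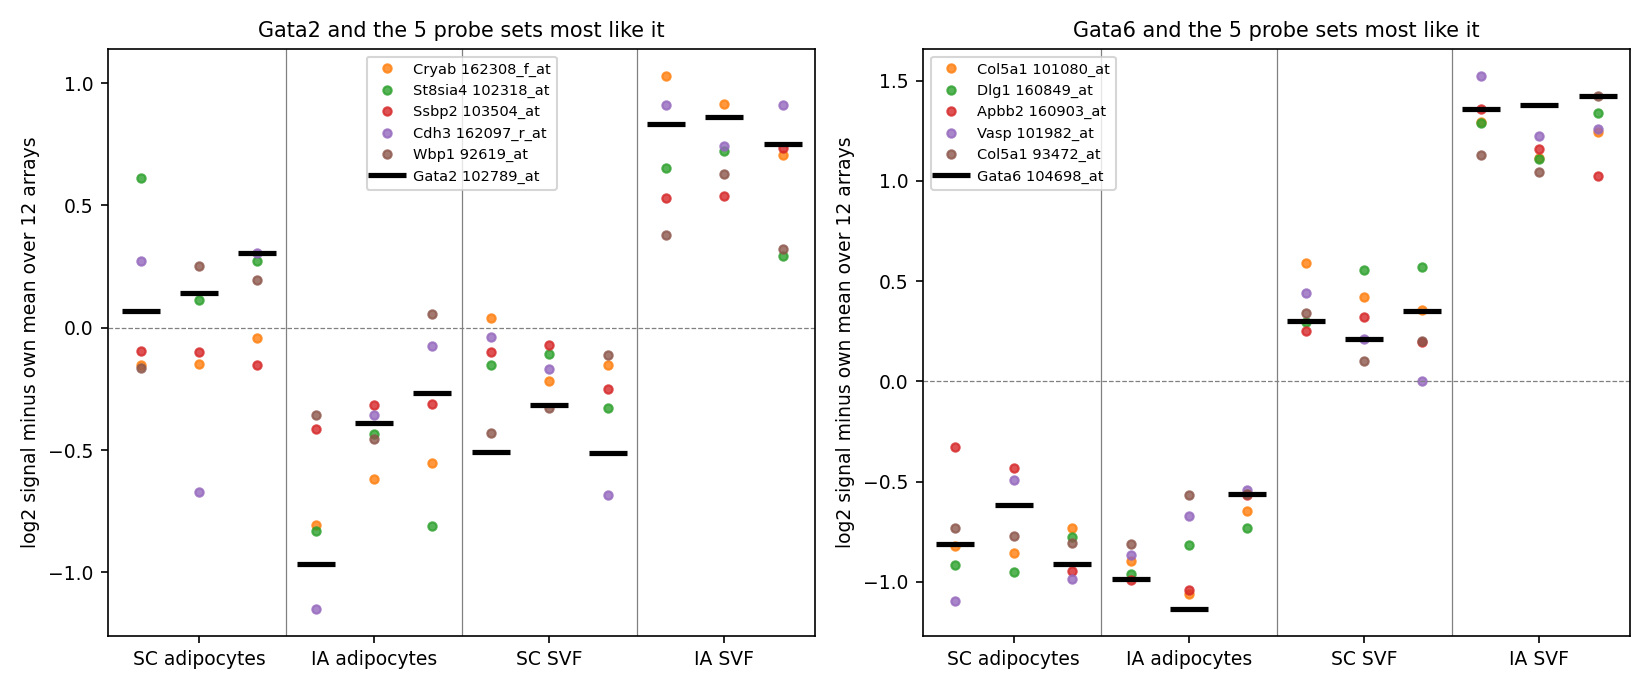
Log2 signal, centred on each probe set's mean over the 12 arrays, for Gata2 102789_at (left) and Gata6 104698_at (right) with the 5 probe sets of most similar pattern. Black bars are the Gata probe set and coloured points the others, 1 per array, in the 4 groups (SC subcutaneous, IA intraabdominal, SVF stromo-vascular fraction). Over the 12 arrays, the root mean square difference from the Gata probe set was at most 0.312 for Gata2 and 0.223 for Gata6. Single points can lie further off.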

How the data were processed

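Each deposited value is a linear signal intensity of 1 probe set on 1 array, made by the authors with MAS5, per the submitters' processing notes, with no version given in the sources used here. Trimming 2% at either end, array means lay within a ratio of 1.000167, and the values were used as deposited. The 66 control probe sets were left out. Of the other 12422, 10833 had 1 gene symbol in the platform annotation, 396 several and 1193 none, and genes were named from single symbols. Log2 of signal plus 40.1, the 10th percentile of all values, was fitted with limma 3.58.1 in R 4.3.3 as 4 group means on all 12 arrays (lmFit, eBayes with trend, 8 residual degrees of freedom), and the contrasts are those of the text. The probe set left out as too dim was fitted without the filter. Alternatives covered pseudocount, filter, centring, weights, the arrays fitted, the replicate number as a block and leaving out each array; the actin covariate was added after seeing the data. All Gata2, Gata3 and Gata6 probe sets are named, with list genes called between depots and, for each list and fraction comparison, up to 4 more by smallest p. A gene with several probe sets was represented by the brightest. Members and lists were chosen with earlier results of these data known. The steps were tested on simulated data. The number of arrays limits the precision.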

Additional observations from a re-analysis of the deposited data

Results flagged for a closer look

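For Gata2 102789_at, the depot difference, subcutaneous minus intraabdominal, differed between adipocytes and SVF cells by a test of that difference itself, at 1.97 on the log2 scale (limma interaction, adjusted p = 0.000383). The depot difference was positive in adipocytes (0.71) and negative in SVF cells (-1.26). For Gata6 104698_at the same test gave 1.21 (limma adjusted p = 0.00955), with depot differences of 0.12 in adipocytes and -1.10 in SVF cells. By the other Gata6 probe sets it gave -0.94 for 93925_at and 0.54 for 160662_r_at, neither called (limma adjusted p = 0.52 and 0.602).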

How the results depend on the processing

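Of 659 values of the Gata probe sets under the alternatives, 623 kept their side of the threshold, and in 0 did a called difference change direction. Most of the 659 belong to differences that were not called in the text above. The adipocyte depot call of Gata2 102789_at was kept under 5 of 23 alternatives. Differences that were not called crossed 0 in some, as that of Gata3 between depots in adipocytes did, at -0.44 to 0.47. Values in parentheses are limma adjusted p. The adipocyte depot difference of Gata2 102789_at was least firm: 0.71 with no filter (limma adjusted p = 0.0526), 0.49 with arrays centred on their medians (0.124), 0.58 with quantile normalization (0.0814), 0.76 with array weights (0.0667), 0.71 from the compared arrays alone (0.17), 0.50 with the actin covariate (0.572) and 0.50 to 0.85 without single arrays. Its subcutaneous fraction difference was 0.55 to 0.68 without single arrays and 0.076 with the actin covariate (0.963). With that covariate the Gata6 104698_at subcutaneous fraction difference was -1.50 (0.15) and its interaction 1.06 (0.103). Some differences that were not called passed the threshold elsewhere. For Gata2 161820_f_at the subcutaneous fraction difference was 1.87 with a pseudocount of 10 (0.03), 1.07 with median centring (0.0497), 1.24 with array weights (0.0227) and 0.51 to 1.43 without single arrays, and its SVF depot difference was -0.89 from the compared arrays alone (0.0236). For Gata3 the subcutaneous fraction difference was -1.15 with quantile normalization (0.0465), -1.02 with no trend (0.0454) and -1.48 to -0.58 without single arrays. For Gata6 93925_at the SVF depot difference was 1.31 with array weights (0.0221), 1.40 from the compared arrays alone (0.0117) and 1.14 to 1.56 without single arrays. With the filter at 50%, Gata2 102789_at and Gata6 104698_at alone had values. With the actin covariate, standard errors of the subcutaneous fraction difference rose. They were 0.662 against 0.197 for Gata2 102789_at and 0.631 against 0.187 for Gata6 104698_at. The actin ratio did not overlap between fractions, so a call lost with it cannot be assigned to RNA integrity. The cause of the other changes was not tested.

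Counts of called probe sets moved by over 1.5 times as follows. The depot count in SVF cells was 1952 with array weights, against 1125. The depot count in adipocytes was 299 from the compared arrays alone, 97 with the actin covariate and 365 to 949 without single arrays, against 707. With the actin covariate the fraction counts were 1058 in subcutaneous and 2173 in intraabdominal fat, against 4594 and 4462, and the interaction count was 403, against 733. Among 41 results of cofactors and regulators, 3 values changed direction, all with the actin covariate: Hdac5 at -0.067 and Klf2 at -4.40 in the subcutaneous and Klf2 at -1.35 in the intraabdominal fraction difference, none called. Of 925 values of these results under the alternatives, 835 kept their call and 87 lost it.

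Replicate numbers did not pair the arrays: same-numbered arrays correlated at -0.09 to 0.11 in their deviations from group means, over 0.1 in 1 of 18 pairs. With the replicate block the adipocyte depot difference of Gata2 102789_at was 0.71 (0.0502), its SVF one -1.26 (0.000967), and the called probe sets numbered 595 and 1054.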

Other observations

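A pair of genes linked to GATA factors had second probe sets with patterns of their own. Rxra 92235_g_at was lower in subcutaneous than in intraabdominal adipocytes, with mean signals of 867 and 1396 (log2 difference -0.68, limma adjusted p = 0.0321), and higher in subcutaneous than in intraabdominal SVF cells, with 1342 and 816 (0.68, limma adjusted p = 0.0201). Its interaction was -1.36 (limma adjusted p = 0.00323), the opposite sign to that of Gata2 102789_at. The brighter Rxra probe set differed between depots by -0.04 in adipocytes (limma adjusted p = 0.875). Lmo2, a bridging partner of GATA factors in blood formation, averaged 880 in subcutaneous and 280 in intraabdominal adipocytes by 93666_at. The arrays did not overlap, as for 24.3% of all probe sets tested, and the difference of 1.64 was not called (limma adjusted p = 0.0771). Lmo2 93666_at was called higher in subcutaneous adipocytes than in subcutaneous SVF cells (1.56, limma adjusted p = 0.0248). The brighter Lmo2 probe set, 96810_at, was called lower in intraabdominal adipocytes than in intraabdominal SVF cells (-1.02, limma adjusted p = 0.00485). With the actin ratio as a covariate the difference was -1.66 and was not called (limma adjusted p = 0.0655).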
